A study of Mus musculus with 24 samples.

Results

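The quantity described here is the difference between the anti-PD-1 responses of CT26 tumours grown from 2 cultures, that is, the NP1867 anti-PD-1 minus NP1867 isotype difference less the DMSO anti-PD-1 minus DMSO isotype difference, on the log2 scale. A positive value means that anti-PD-1 moved a gene further upwards, or less far downwards, in NP1867 tumours than in DMSO tumours. All 24 tumours of the series entered it, 12 in each response, and 600 of the 750 genes in the table were tested, namely those whose log2 value averaged log2 of 20 or more. CT26 is a mouse colon carcinoma line from BALB/c mice. The 4 groups of 6 tumours were NP1867 anti-PD-1, NP1867 isotype, DMSO anti-PD-1 and DMSO isotype. NP1867 is an inhibitor of PMS2. For the NP1867 groups, cells were kept for 40 weeks in culture with 0.5 uM of it, and for the DMSO groups with the vehicle alone for as long. Both cultures were then placed under the skin of immunocompetent BALB/c mice. On day 7, once tumours averaged close to 50 mm3, mice were allotted at random to the rat antibody against PD-1 (clone RMP1-14) or to its isotype control (clone 2A3). Each mouse received 4 doses of 5 mg/kg into the peritoneum, and fixed tumours were taken on day 19, 24 h after the last dose. The tumours were picked because their volume lay near the mean of their group, and the labels name no separate cultures per condition. The p values therefore cover the spread between tumours of 1 culture each, and no spread between cultures.

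PMS2 is a subunit of the DNA mismatch repair complex MutL-alpha, and cells without mismatch repair gather mutations, some of which change proteins that T cells can recognise. PD-1, encoded by Pdcd1, is an inhibitory receptor of activated T cells, and antibodies that block it release T cells from the signal of its ligand PD-L1. The study crossed both factors, so the difference of the responses asks whether the long culture with NP1867 altered what anti-PD-1 did to the immune RNA of the tumours.

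Expression was measured on a mouse panel of cancer and immune genes by the nCounter assay, which counts labelled probes one molecule at a time. The deposited log2 values were whole counts times 1 factor per tumour, from which the counts were recovered. Recovered totals averaged 453852 ± 180402 in NP1867 anti-PD-1 tumours, 330362 ± 74928 in NP1867 isotype tumours, 333088 ± 179640 in DMSO anti-PD-1 tumours and 287371 ± 174793 in DMSO isotype tumours (SD, n = 6 each). 4 tumours held fewer than 200000 counts. They were DMSO anti-PD-1 tumours 11 (153211) and 37 (106186) and DMSO isotype tumours 6 (90640) and 23 (62699), against a lowest total of 245260 among the other 20. All 4 belonged to the DMSO response and none to the NP1867 response, so totals under 200000 touch the DMSO response only. The main results below are given with and without these 4 tumours. Between 6 and 95 of the tested genes lay under 10 counts in those 4 tumours, and between 0 and 14 in the others. The 14 were in NP1867 isotype tumour 26, so single values of the NP1867 response also rested on few counts. Of the markers fixed for cell types, the carcinoma marker Epcam was low (log2 2.08 to 5.95, median 3.42, not tested) and Cdh1 was low as well (3.76 to 6.62, median 4.92). The leukocyte gene Ptprc had a median of 9.01, the macrophage gene Cd68 9.98 and the fibroblast gene Col1a1 11.69. The RNA came from whole tumour sections, in which fewer cells of a type and less RNA per cell cannot be told apart.

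**Figure D1:**
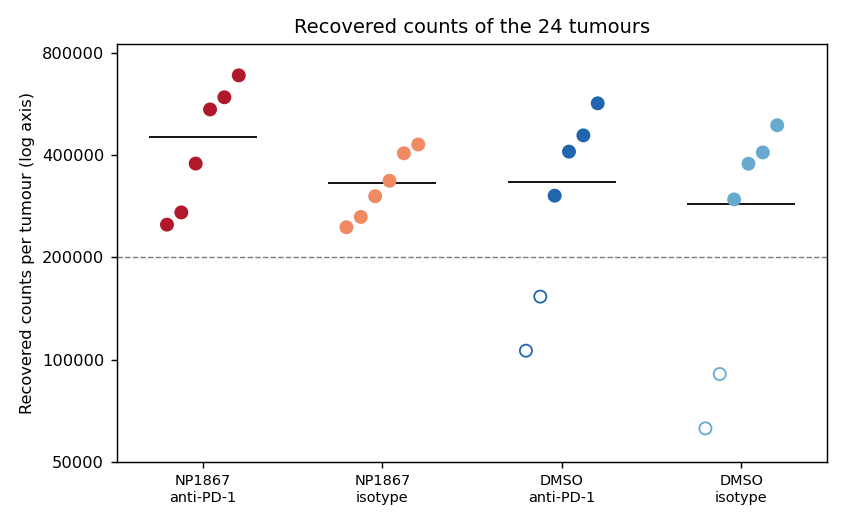
Recovered counts per tumour (log axis) in the 4 groups of 6 tumours, with a bar at the group mean and a dashed line at 200000. Open circles mark the 4 tumours below the line, none in an NP1867 group and 2 in each DMSO group.

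No gene passed the test of the difference. With limma and Benjamini-Hochberg adjustment over the 600 genes, 0 were called at an adjusted p under 0.05 (0%), and the lowest adjusted p was 0.995. Without the 4 tumours of low counts 0 were called again (0%), with a lowest adjusted p of 0.996. At an unadjusted p under 0.05 there were 11 genes with a positive difference (1.83%) and 0 with a negative one (0%). Without the 4 tumours the same limit held 3 positive genes (0.5%) and 4 negative ones (0.667%). Only Lilra5 and Il12rb1 were under it in both. The genes named below are therefore described by their values and intervals, and none of them is a called change.

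The intervals set how small a difference could be seen. The 95% interval of the difference reached a median of 0.81 on either side of the estimate, with a range over genes of 0.29 to 2.56. It lay wholly within a 2-fold difference of responses (-1 to 1 on the log2 scale) for 278 genes (46.3%), and for 306 genes (51%) without the 4 tumours. For 228 genes it reached above 1 only, for 48 below -1 only and for 46 past both. For those genes the interval held responses more than 2-fold stronger or weaker in NP1867 tumours.

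Most differences were lower without the 4 tumours of low counts, and 198 of the 600 changed sign. The difference was above 0 for 425 genes (70.8%) over all tumours, with a median over genes of 0.13, and for 273 genes (45.5%) without the 4, with a median of -0.03. The median response of the 600 genes was 0.43 in NP1867 tumours. That of DMSO tumours was 0.23 with all tumours and 0.46 without the 4, and the NP1867 response held none of the 4, so the movement lay in the DMSO response. The difference was lower without the 4 tumours for 506 genes, with 175 going to a negative and 23 to a positive value. The share of positive genes also moved with the scaling. Centring each tumour on its median gave 343 positive genes (57.2%) and a median difference of 0.04 over all tumours, and quantile normalisation gave 272 (45.3%) and -0.03. Centring after the 4 tumours were left out, a setting chosen after seeing the data, gave 404 (67.3%) and 0.12. The balance of signs over the table thus had no fixed direction, and the values of single genes below are read against these medians. Of the 600 genes, 514 had responses of the same sign in both cultures.

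**Figure D2:**
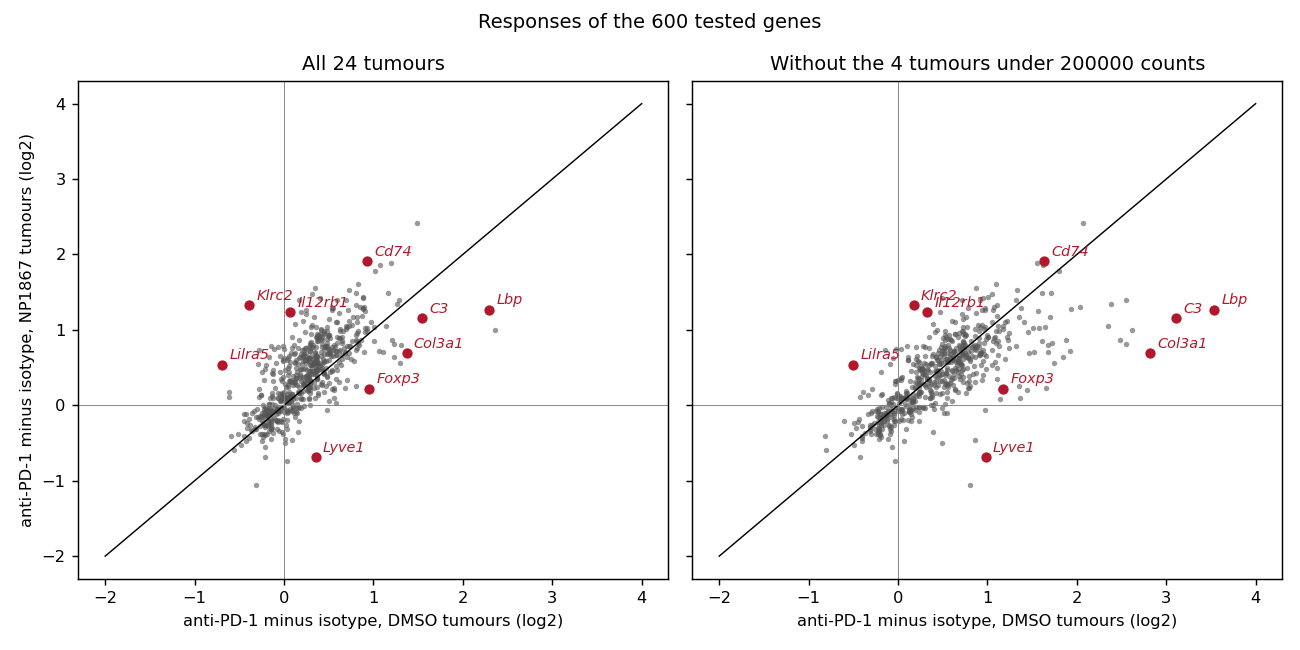
Anti-PD-1 minus isotype (log2) in NP1867 tumours (vertical axis) against the same in DMSO tumours (horizontal axis) for the 600 tested genes, with a line where both are equal. Left, all 24 tumours, with most points above the line; right, without the 4 tumours under 200000 counts, where Lbp, Col3a1 and C3 lie farthest to the right.

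Lilra5, a leukocyte immunoglobulin-like receptor known from human myeloid cells, had the lowest p. In NP1867 tumours it measured 4.70 to 5.60 under anti-PD-1 (median 5.25), against 4.34 to 5.15 under isotype (median 4.61). Among DMSO tumours it measured 3.92 to 5.34 under anti-PD-1 (median 4.89), against 4.72 to 6.62 under isotype (median 5.36). All 6 NP1867 anti-PD-1 tumours lay above the mean of their isotype group and 0 of 6 DMSO anti-PD-1 tumours lay above theirs, though the values of the paired groups overlapped in both cultures. The response was 0.54 ± 0.28 in NP1867 tumours and -0.69 ± 0.28 in DMSO tumours (SE). The difference was 1.23 (95% interval 0.40 to 2.06, adjusted p = 0.995 by limma), a ratio of the fold responses of 2.35. The highest DMSO isotype values came from tumours 23 and 6, at 18 and 15 recovered counts. Those of NP1867 isotype tumours rested on 13 to 44 counts. Without the 4 tumours the difference was 1.04 (0.33 to 1.75), and over all alternatives that tested it the estimate lay between 0.88 and 1.39.

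Il12rb1 encodes the receptor chain that interleukin-12 and interleukin-23 share, through which T cells and natural killer cells are driven towards interferon-gamma. In NP1867 tumours it measured 5.33 to 6.41 under anti-PD-1 (median 5.92), against 4.17 to 5.19 under isotype (median 4.65). In DMSO tumours it measured 4.86 to 6.00 under anti-PD-1 (median 5.40), against 4.51 to 6.45 under isotype (median 5.43). The 2 NP1867 groups did not overlap and the 2 DMSO groups lay over each other. The highest DMSO isotype values again came from tumours 23 and 6, at 16 and 12 counts, and the NP1867 isotype values rested on 14 to 48. The responses were 1.23 ± 0.29 in NP1867 tumours and 0.07 ± 0.29 in DMSO tumours (SE). The difference was 1.17 (0.31 to 2.02, adjusted p = 0.995), and 0.91 (0.07 to 1.74) without the 4 tumours.

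The third lowest p belonged to a subunit of NF-kB, a transcription factor family activated by antigen and innate receptors. Rel, the subunit prominent in activated lymphocytes, measured 6.90 to 7.63 in NP1867 anti-PD-1 tumours (median 7.12), against 6.20 to 6.90 in NP1867 isotype tumours (median 6.62). In DMSO tumours the ranges of Rel were 6.64 to 6.97 under anti-PD-1 (median 6.77) and 6.27 to 7.05 under isotype (median 6.72). Values met only at the edge in NP1867 tumours and overlapped throughout in DMSO tumours. The difference of Rel was 0.56 (0.10 to 1.03) with all tumours and 0.48 (-0.04 to 1.01) without the 4. Nfkb1, the last of the 11 by p, which encodes the p105 precursor of the p50 subunit, had responses of 0.32 in NP1867 tumours and -0.02 in DMSO tumours. Its difference was 0.34 (0.00 to 0.69), and 0.36 (-0.03 to 0.74) without the 4 tumours. Of 14 tested NF-kB genes 10 were positive, a share near that of the table (70.8%), with a median of 0.33, and 11 were positive without the 4 tumours, with a median of 0.11.

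Natural killer receptors were positive in 9 of 9 tested members, of 22 in the table, with a median of 0.55. Leaving out the 4 tumours kept 9 of 9 positive (median 0.21), and quantile normalisation gave 7 of 9 (median 0.35). The share over all genes tested was 70.8% with all tumours, 45.5% without the 4 and 45.3% after quantile normalisation. Klrc2, a CD94-pairing receptor of the NKG2 family, had the largest estimate of all genes. It measured 4.87 to 6.43 in NP1867 anti-PD-1 tumours (median 5.09), against 3.23 to 4.72 in NP1867 isotype tumours (median 4.09), and these groups did not overlap. Among DMSO tumours it measured 4.07 to 5.04 under anti-PD-1 (median 4.35), against 2.95 to 6.77 under isotype (median 4.82), where the isotype group enclosed the anti-PD-1 group. The difference was 1.72 (0.25 to 3.19), and 1.16 (-0.15 to 2.46) without the 4 tumours. Tumours 23 and 6 were its highest DMSO isotype values, at 20 and 17 counts. The NP1867 isotype values of Klrc2 also rested on few counts, 11 to 23. Hcst, the adaptor DAP10 of the NKG2D receptor, had a difference of 1.02 with all tumours and 0.32 without the 4.

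Among dendritic cell genes, Xcr1, the chemokine receptor of cross-presenting dendritic cells, measured 4.99 to 5.63 in NP1867 anti-PD-1 tumours (median 5.36), against 3.55 to 4.95 in NP1867 isotype tumours (median 4.27). In DMSO tumours Xcr1 ran from 4.30 to 5.37 under anti-PD-1 (median 4.91), against 3.62 to 6.03 under isotype (median 4.78). The NP1867 groups were separate and the DMSO groups were not, though 5 of 6 DMSO anti-PD-1 tumours lay above their isotype mean. Counts of Xcr1 in NP1867 isotype tumours ran from 14 to 27. Its difference was 0.97 (0.06 to 1.87), and 0.69 (-0.19 to 1.57) without the 4 tumours. Irf8, a factor needed for that dendritic cell lineage, had a difference of 0.55 (-0.02 to 1.12), and 0.40 (-0.25 to 1.05) without the 4. Irf4, a factor of other dendritic cells and of activated lymphocytes, had a difference of 1.17 (-0.01 to 2.35), and 0.42 (-0.49 to 1.34) without the 4. All 8 tested dendritic cell genes, of 11 in the table, were positive with all tumours (median 0.38). Without the 4 tumours 5 were positive (median 0.28), and after quantile normalisation 5 (median 0.13). The share over all genes tested was 70.8% with all tumours and 45.5% without the 4.

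**Figure D3:**
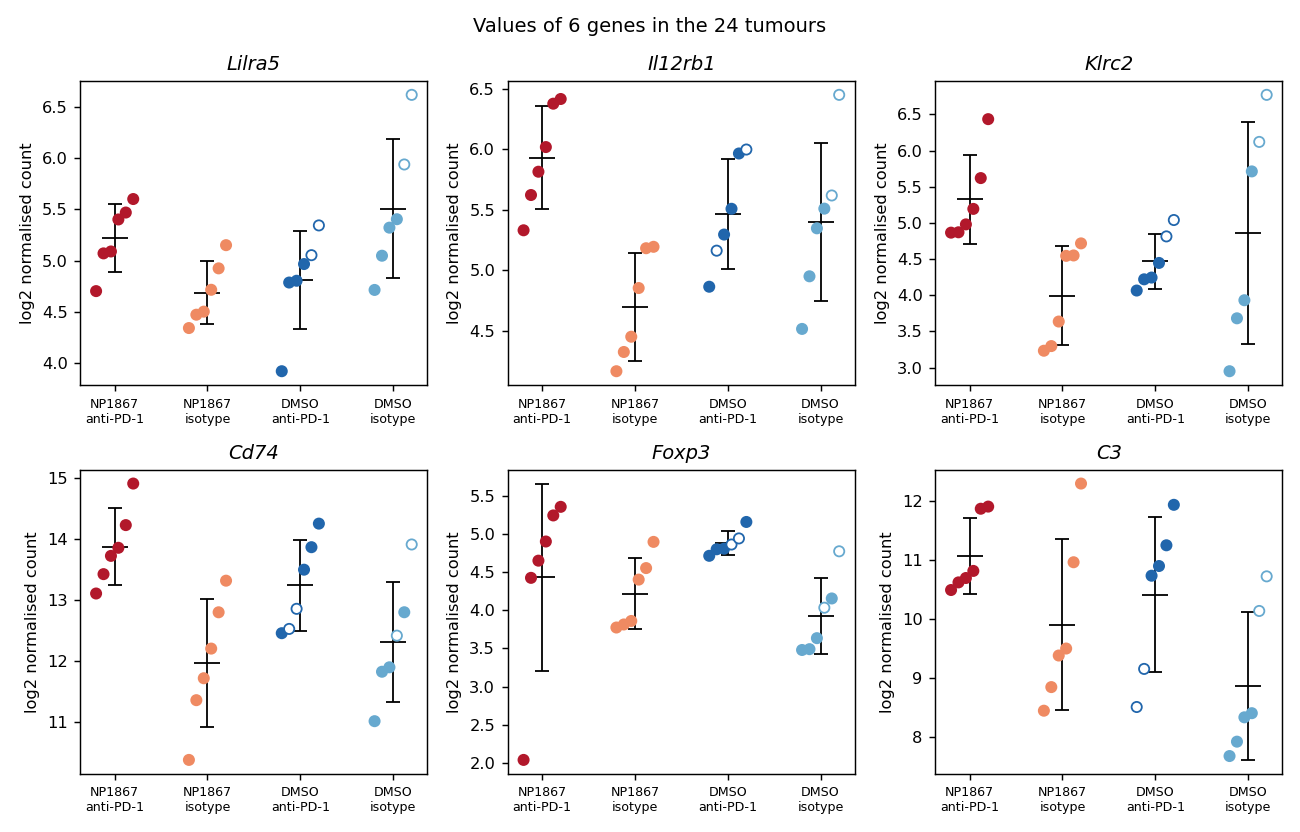
Log2 normalised counts of Lilra5, Il12rb1, Klrc2, Cd74, Foxp3 and C3 in each of the 24 tumours, by group, with the mean (bar) and SD (whisker). Open circles are the 4 tumours under 200000 counts, which are the 2 lowest DMSO anti-PD-1 values for C3 and the 2 highest DMSO isotype values for Lilra5, Il12rb1, Klrc2 and C3.

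Other genes with an unadjusted p under 0.05 were Il7r, Irak2, Mertk, Notch1 and Cd53. Il7r, the receptor chain for the survival cytokine interleukin-7, measured 5.27 to 7.22 in NP1867 anti-PD-1 tumours (median 6.61), against 4.36 to 5.55 in NP1867 isotype tumours (median 4.90). In DMSO tumours it measured 4.97 to 5.71 under anti-PD-1 (median 5.45), against 4.01 to 6.70 under isotype (median 4.77). Its anti-PD-1 values lay high in NP1867 tumours and inside the isotype range in DMSO tumours, where 5 of 6 lay above the isotype mean. The difference was 1.21 (0.06 to 2.37), and 0.69 (-0.39 to 1.76) without the 4 tumours. Irak2, a kinase of Toll-like and interleukin-1 receptors, had 0.93, and 0.51 without the 4. Mertk, a macrophage receptor for dying cells, had 0.74, and 0.77 without the 4. The leukocyte tetraspanin Cd53 had 0.81 and the receptor Notch1 0.47, and without the 4 tumours these were 0.54 and 0.26. Ecsit, an adaptor of Toll-like receptor signalling, had 0.51 and 0.34 without the 4.

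A single tumour stood at the edge of many of these values. DMSO isotype tumour 23, which had the fewest counts, was the highest of its group for 13 of the 15 positive genes of lowest p (86.7%) and the lowest for 8 of the 10 negative genes of lowest p (80%). Over all genes tested it was the highest of its group for 48.8% and the lowest for 19.3%. The genes of lowest p were picked by a difference that a high DMSO isotype value raises and a low one lowers. Their shares are therefore partly set by that choice and are not a separate observation. Without that tumour the differences were 1.01 for Lilra5, 0.96 for Il12rb1, 1.34 for Klrc2, 0.88 for Il7r, 0.82 for Irf4, 0.63 for Hcst and 0.33 for Ecsit. Some negative differences were nearer 0 without it, at -0.15 for Cd34, -0.15 for Twist1, -0.17 for Atf1, -0.25 for Herc6, -0.15 for Il1rap and -0.42 for Clu. Others were farther from 0, among them -0.90 for Foxp3, -1.70 for Cfd, -0.75 for C3, -1.25 for Lbp and -0.96 for Vwf. Its part in the remaining differences was not tested further.

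No negative difference reached an unadjusted p under 0.05 over all tumours. The 10 of lowest p were Clu, Atf1, Cd34, Map2k4, Twist1, Foxp3, Pvr, Herc6, Lyve1 and Il1rap. Clu, the extracellular chaperone clusterin, measured 7.09 to 9.04 in NP1867 anti-PD-1 tumours (median 8.36), against 8.43 to 10.00 in NP1867 isotype tumours (median 8.77). Among DMSO tumours it measured 7.88 to 8.67 under anti-PD-1 (median 8.15), against 6.36 to 9.52 under isotype (median 8.21). Only 1 of 6 NP1867 anti-PD-1 tumours lay above the mean of its isotype group, against 3 of 6 DMSO tumours, and all groups overlapped. The difference was -0.78 (-1.90 to 0.34), -0.71 (-1.71 to 0.29) without the 4 tumours and -0.42 without DMSO isotype tumour 23 alone, whose value was the lowest of its group.

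Foxp3, the lineage factor of regulatory T cells, measured 2.04 to 5.35 in NP1867 anti-PD-1 tumours (median 4.77), against 3.77 to 4.89 in NP1867 isotype tumours (median 4.13). In DMSO tumours it measured 4.71 to 5.15 under anti-PD-1 (median 4.83), against 3.48 to 4.77 under isotype (median 3.83). Anti-PD-1 tumours lay above the isotype mean in 5 of 6 NP1867 and 6 of 6 DMSO cases, and the lowest NP1867 value rested on 3 counts. The difference was -0.73 (-1.91 to 0.45), -0.96 (-2.31 to 0.39) without the 4 tumours and -0.25 without NP1867 anti-PD-1 tumour 67, which held that lowest value. The regulatory T cell list as a whole had 7 of 8 members positive with all tumours (median 0.12), and 5 of 8 without the 4 (median 0.02). Only 2 of 8 were positive after quantile normalisation (median -0.10), and 3 of 8 without the tumour of fewest counts in each group. Over all genes tested the positive share was 70.8% with all tumours and 45.5% without the 4. It was 45.3% after quantile normalisation and 74.0% without the tumour of fewest counts in each group. Ctla4, the inhibitory receptor these cells carry, had a difference of 0.90, and 0.52 (-0.48 to 1.52) without the 4.

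Lyve1, a hyaluronan receptor of lymphatic vessels and some macrophages, had a difference of -1.05 (-2.85 to 0.76), -1.67 (-3.54 to 0.19) without the 4 tumours and -0.57 without NP1867 isotype tumour 47. Cd34, an adhesion glycoprotein of vessels and progenitors, lay below the isotype mean in all 12 anti-PD-1 tumours. Its responses were -0.69 in NP1867 tumours and -0.22 in DMSO tumours, with a difference of -0.47 (-1.20 to 0.26), or -0.27 without the 4 tumours and -0.15 without DMSO isotype tumour 23 alone. The stress-kinase activator Map2k4 had -0.29, the mesenchymal factor Twist1 -0.50, the factor Atf1 -0.45 and the Tigit ligand Pvr -0.35. Without the 4 tumours these were nearer 0, at -0.02, -0.12, -0.23 and -0.10. The interferon-induced ligase Herc6 had -0.55 and the interleukin-1 receptor chain Il1rap -0.29, or -0.38 and -0.27 without the 4.

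**Figure D4:**
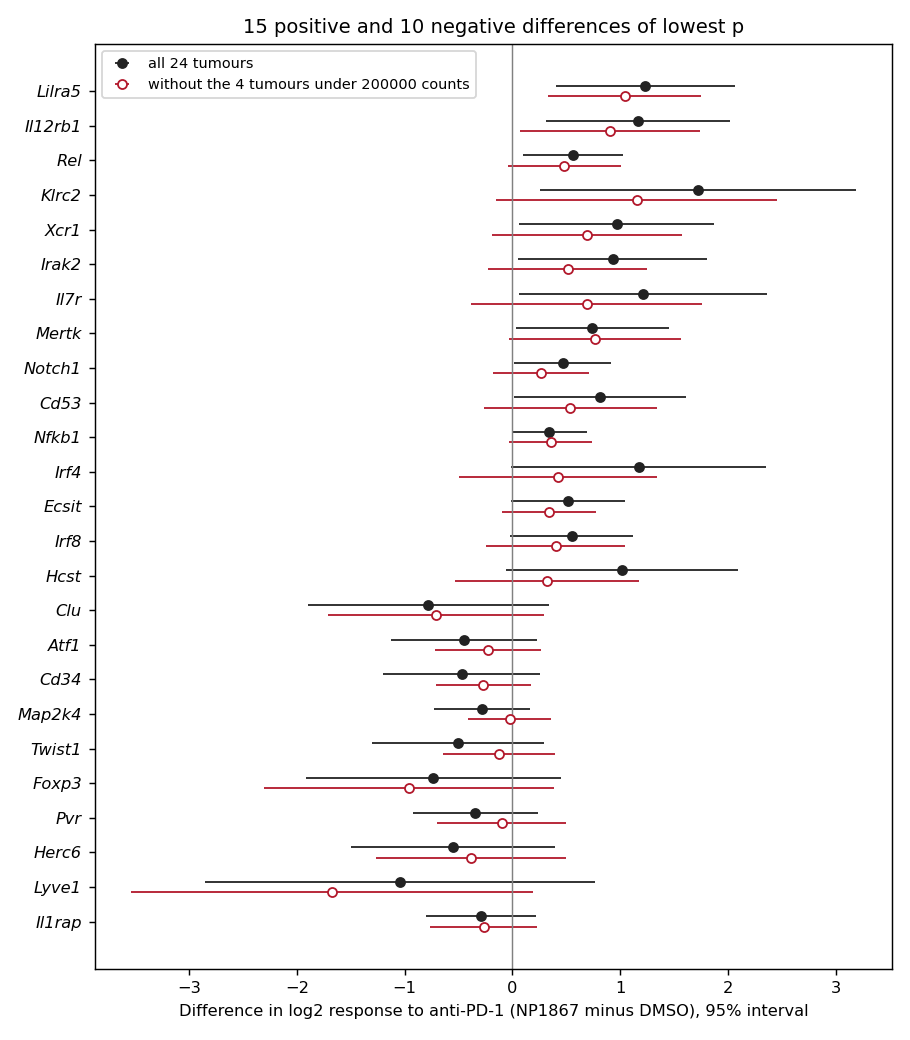
Difference in log2 response (NP1867 minus DMSO) with its 95% interval for the 15 positive and 10 negative genes of lowest p, with all 24 tumours (filled) and without the 4 tumours under 200000 counts (open). With all tumours 11 intervals lie wholly above 0 and none wholly below, and without the 4 only those of Lilra5 and Il12rb1 exclude 0.

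With the 4 tumours left out, 4 other genes had a negative difference of unadjusted p under 0.05. They were C3, Lbp, Col3a1 and Ccl9. Of these, C3 was named after its values were seen, and Lbp, Col3a1 and Ccl9 were named as extremes of lists. C3, the central complement component, measured 10.49 to 11.90 in NP1867 anti-PD-1 tumours (median 10.75), against 8.45 to 12.29 in NP1867 isotype tumours (median 9.44). Among DMSO tumours it measured 8.51 to 11.93 under anti-PD-1 (median 10.81), against 7.69 to 10.72 under isotype (median 8.37). Of the 4 tumours, both anti-PD-1 tumours were the lowest of their group, at 8.51 and 9.16, and both isotype tumours were the highest of theirs, at 10.72 and 10.14. The response of DMSO tumours was 1.54 with them and 3.11 without them, against 1.16 in NP1867 tumours. The difference of C3 was -0.38 (-2.23 to 1.46) over all tumours and -1.95 (-3.56 to -0.34) without the 4, and it was 0.09 without NP1867 isotype tumour 47.

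Lbp, the carrier of bacterial lipopolysaccharide to CD14, measured 6.92 to 8.89 in NP1867 anti-PD-1 tumours (median 7.95), against 4.68 to 9.06 in NP1867 isotype tumours (median 6.75). In DMSO tumours it measured 6.12 to 9.34 under anti-PD-1 (median 7.06), against 3.55 to 7.03 under isotype (median 4.86). All 12 anti-PD-1 tumours lay above the mean of their isotype group. The responses were 1.27 in NP1867 tumours and 2.30 in DMSO tumours, or 3.53 in DMSO tumours without the 4. The difference was -1.03 (-3.01 to 0.95), and -2.27 (-4.34 to -0.19) without the 4 tumours. Col3a1, a fibrillar collagen of fibroblasts, had -0.68 (-2.76 to 1.41), and -2.12 (-4.18 to -0.07) without the 4. Ccl9, a chemokine for monocytes, had -0.54 (-1.62 to 0.53), and -1.09 (-2.13 to -0.06) without the 4. Leaving out NP1867 isotype tumour 47 alone gave -0.53 for Lbp, -0.21 for Col3a1 and -0.24 for Ccl9. Ambp, the precursor of a secreted protease inhibitor, was the third positive gene without the 4, at 0.69 (0.02 to 1.36).

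Several genes of MHC class II and of T cell killing had positive estimates whose intervals held 0. Cd74, the invariant chain of MHC class II, measured 13.11 to 14.91 in NP1867 anti-PD-1 tumours (median 13.79), against 10.39 to 13.32 in NP1867 isotype tumours (median 11.97). In DMSO tumours Cd74 measured 12.46 to 14.25 under anti-PD-1 (median 13.18), against 11.02 to 13.91 under isotype (median 12.16). All 6 anti-PD-1 tumours of each culture lay above the mean of their isotype group. The responses were 1.91 in NP1867 tumours and 0.93 in DMSO tumours, or 1.63 in DMSO tumours without the 4. The difference was 0.98 (-0.38 to 2.34), and 0.28 (-1.17 to 1.73) without the 4. The class II chains H2-Eb1 and H2-Aa had 0.93 and 0.69, and 0.36 and 0.33 without the 4. All 9 tested MHC class II genes were positive with all tumours (median 0.70), and 7 were positive without the 4 (median 0.25). MHC class I and peptide loading genes had 13 of 15 positive (median 0.29), and 11 of 15 (median 0.08) without the 4. The positive share over all genes tested was 70.8% with all tumours and 45.5% without the 4.

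Cd8a, the coreceptor of cytotoxic T cells, measured 5.73 to 6.63 in NP1867 anti-PD-1 tumours (median 6.32), against 3.68 to 5.64 in NP1867 isotype tumours (median 4.93). Among DMSO tumours it measured 5.56 to 6.32 under anti-PD-1 (median 5.91), against 3.96 to 6.62 under isotype (median 5.27). The NP1867 groups did not overlap and the DMSO groups did, with the highest DMSO isotype value from tumour 23 at 18 counts. Counts of Cd8a in NP1867 isotype tumours ran from 15 to 46. All 6 anti-PD-1 tumours of each culture lay above the mean of their isotype group. The difference of Cd8a was 0.80 (-0.17 to 1.78), and 0.47 (-0.54 to 1.48) without the 4 tumours. Without DMSO isotype tumour 23 alone it was 0.54. Ifng, the cytokine of activated T and natural killer cells, had 0.96 (-0.17 to 2.09), and 0.50 without the 4. The killing proteins granzyme B (Gzmb) and perforin (Prf1) had 0.79 (-0.23 to 1.81) and 0.86 (-0.32 to 2.04), and 0.68 and 0.71 without the 4. Prf1 had 0.50 without NP1867 anti-PD-1 tumour 30. All 6 tested genes of the granzyme, perforin and death ligand list were positive both with all tumours (median 0.63) and without the 4 (median 0.30). Cd3e of the T cell receptor complex had 0.52 and 0.05 without the 4, and Cd4 had 0.10 and -0.20 (-0.16 after quantile normalisation). For the antibody's target the difference was 0.31 (-0.54 to 1.16), or -0.10 after quantile normalisation, with Pdcd1 responses of 1.18 in NP1867 tumours and 0.87 in DMSO tumours. Its ligand gene Cd274 had 0.31 (-0.46 to 1.07). Cxcl9, a chemokine induced by interferon-gamma, had 0.15 and -0.27 without the 4.

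Across the 30 gene lists the medians followed the shift of all genes. The median difference was above 0 in 24 lists with all tumours and in 14 without the 4, in 22 with each tumour centred on its median and in 19 after quantile normalisation. It was lower without the 4 tumours in 29 lists. None of the lists held a gene past the adjusted threshold, and the share of positive genes over the table was itself 70.8% with all tumours and 45.5% without the 4. The interferon-gamma, interleukin-12 and interleukin-18 list had 11 of 12 positive (median 0.42), and a median of 0.17 without the 4. The mast cell, basophil and eosinophil list had 6 of 6 positive (median 0.48), with the eotaxin receptor Ccr3 at 1.23, and 4 of 6 (median 0.35) without the 4. Ccr3 had 0.67 without the 4.

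Some lists changed sign when the 4 tumours were left out. B cell genes had 8 of 9 positive with a median of 0.51, with the complement receptor Cr2 at 1.04, and a median of -0.05 without the 4 (0.10 with centring as well). Cr2 had 0.76 without the 4. Macrophage and lipid handling genes had 17 of 20 positive with a median of 0.36, and 9 of 20 with -0.10 without the 4 (0.05 with centring as well). Within that list the chitinase-like protein Chil3 stood at 1.02 and the haemoglobin scavenger receptor Cd163 at -0.45. Without the 4 tumours these were 0.93 and -1.43 (-3.01 to 0.16), and Cd163 was -0.06 without NP1867 isotype tumour 47 alone. Lymphocyte-attracting chemokine genes had 12 of 14 positive (median 0.13), and 3 of 14 (median -0.25) without the 4. Fibroblast, matrix and TGF-beta genes had medians of 0.07 with all tumours and -0.09 without the 4, and of -0.02 with centring and 0.06 with both.

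The medians of complement, type I interferon and vessel genes lay near or below 0 with all tumours, and each was above 0 when the tumour of fewest counts in each group was left out. Complement genes had 9 of 18 positive with a median near 0 (-0.00), and 0 of 18 with a median of -0.50 without the 4 (3 of 18 with -0.35 with centring as well). Without the tumour of fewest counts in each group, 12 of 18 complement genes were positive, with a median of 0.13. In that list Cfd, the protease factor D, had the lowest difference of all genes with all tumours. It was -1.35 (-3.91 to 1.20), and -1.62 (-4.46 to 1.23) without the 4. Type I interferon-stimulated genes had 8 of 23 positive with a median of -0.06, and 2 of 23 with -0.19 without the 4 (9 of 23 with -0.04 with centring as well). Without the tumour of fewest counts in each group, 16 of 23 were positive, with a median of 0.08. Ifi44 had the lowest value among them with all tumours, -0.45, and had -0.55 without the 4. Vessel genes had 5 of 13 positive with a median of -0.12, with von Willebrand factor (Vwf) at -0.74, and 0 of 13 with -0.27 without the 4. Vwf had -1.19 without the 4. Without the tumour of fewest counts in each group, vessel genes had 10 of 13 positive and a median of 0.23. Over all genes tested, that setting gave 444 positive (74.0%) and a median of 0.15. The counts of these 3 lists under it lay near that share. Monocyte and neutrophil chemokine genes had medians of -0.08 with all tumours and -0.24 without the 4. Ccl4 was the highest with all tumours at 0.74, and had 0.51 without the 4. Carcinoma cell and proliferation genes had medians of -0.06 with all tumours and -0.01 without the 4, or 0.135 with centring as well.

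**Figure D5:**
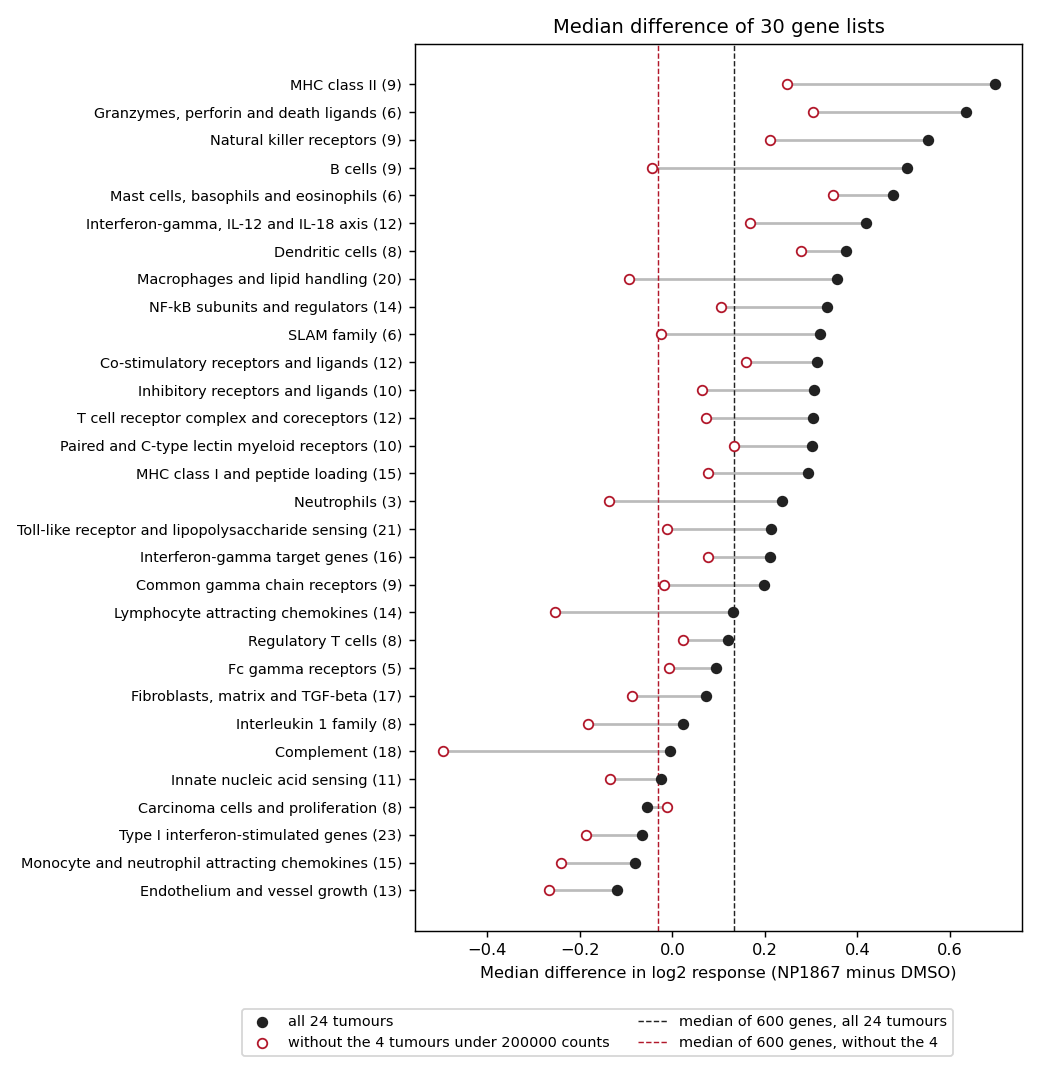
Median difference in log2 response (NP1867 minus DMSO) over the tested genes of 30 lists (number tested in brackets), with all 24 tumours (filled) and without the 4 under 200000 counts (open). Dashed lines mark the medians of all 600 genes, 0.13 and -0.03, and 29 of the 30 open points lie left of their filled points.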

How the data were processed

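The authors deposited 1 table of log2 values for 750 genes in 24 tumours, measured on the nCounter panel from 100 ng of RNA, per the labels. The normalisation behind the values is not given in the sources used here. Each value was a whole count times 1 factor per tumour (0.522 to 5.457), for 100% of values within 0.05 of a whole count, which gave totals of 62699 to 687032 per tumour. None of 276 tumour pairs was identical (0).

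The 600 genes whose log2 value averaged log2 of 20 or more were tested with limma 3.58.1 in R 4.3.3. The group means of all 24 tumours were fitted, and the contrast of the 4 groups tested 2-sided with empirical Bayes moderation and a mean trend (20 residual and 4.33 prior degrees of freedom). The p values were adjusted by Benjamini-Hochberg over the 600 genes, with 95% intervals from the same fit. The code was tested on simulated data. Gene lists are described by counts and medians only. The members and lists were chosen with earlier results of these data known, as was the limit of 200000 counts. Genes named were the 15 positive and 10 negative of lowest p, extremes of lists and a fixed set of 15 genes, some of which are not reported here; C3 and Ambp were added after their values were seen. In total 41 alternatives were run, among them 24 that left out 1 tumour each. No value columns were left unused (0). Symbols are those of the table, of which 736 matched a RefSeq gene table of GRCm38.p6 and 8 matched as older symbols.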

Additional observations from a re-analysis of the deposited data

Results flagged for a closer look

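Of 244 groups of 6 values examined for the named genes and the recovered totals, 13 (5.33%) held 1 tumour far from the other 5, and chance gives about 1 in 20. Of these, 7 lay in DMSO isotype tumour 23, the tumour of fewest counts. That tumour was high for Ecsit (6.84, others 5.53 to 5.84), Cr2 (7.09, others 3.58 to 4.67), Ccl4 (7.09, others 5.03 to 5.60) and Ambp (6.26, others 4.37 to 4.62). It was low for Atf1 (6.15, others 7.59 to 7.97), Cd34 (9.94, others 11.61 to 12.23) and Twist1 (7.31, others 9.28 to 9.66). These values rested on 13 to 29 recovered counts, except that of Cd34, which rested on 180. Among NP1867 anti-PD-1 tumours, Foxp3 was low in tumour 67 (2.04, 3 counts, others 4.42 to 5.35), Herc6 was low in tumour 50 (7.99, others 8.52 to 8.67) and Il1rap was low in tumour 30 (7.30, others 7.73 to 7.97). Among NP1867 isotype tumours, tumour 47 was high for Cd163 (7.87, others 5.03 to 6.08) and Ccl9 (12.70, others 10.50 to 11.25), and tumour 57 was low for Fcgr4 (7.73, others 9.43 to 10.31).

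Lilra5 drew attention because, within each culture, every anti-PD-1 tumour lay on the same side of the mean of the isotype tumours. In NP1867 tumours 6 of 6 lay above the isotype mean and in DMSO tumours 0 of 6 did. The difference of 1.23 was tested and was not called (limma adjusted p = 0.995, and 0.825 as the lowest adjusted p of any gene under any alternative).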

How the results depend on the processing

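No gene passed an adjusted p of 0.05 under any of the 41 alternatives, whose lowest adjusted p was 0.825 (without NP1867 isotype tumour 47). The number of genes at an unadjusted p under 0.05 ran from 4 to 22, against 11 with all tumours. It was 5 without DMSO isotype tumour 23 and 7 without 47, 19 without 55 and 20 without 59. It was 6 without DMSO anti-PD-1 tumour 13 and without 43. It was 4 without NP1867 isotype tumour 10 and without 57, 7 without 49 and 22 without 47. It was 5 without NP1867 anti-PD-1 tumour 78, 6 without 30, 7 without 45 and 17 without 50. It was 20 with array weights, 17 with the log2 factor or the log2 total as covariate, 16 with no filter and on the square root scale, 6 with a filter at 50, 6 with limma-voom and 7 without the 4 tumours of low counts. Of 60 genes, 47 kept the sign of their difference under every alternative that tested them, and 13 did not. Array weights turned Atf1 to 0.021, Twist1 to 0.031, Cd4 to -0.41, Cxcl9 to -0.081, H2-Q10 to -0.027, C4b to -0.13 and Cxcr4 to -0.063. Leaving out the 4 tumours turned Ptprc to -0.18, Cd4 to -0.20, Cxcl9 to -0.27 and C4b to -0.73. Leaving them out with limma-voom, chosen after seeing the data, gave Ptprc -0.17, Cd4 -0.20, Cxcl9 -0.28 and C4b -0.72. Leaving them out and centring, also chosen after seeing the data, gave Map2k4 0.12, Twist1 0.022, Pvr 0.049, Ptprc -0.029, Cd4 -0.054, Cxcl9 -0.13 and C4b -0.58, with a median over all genes of 0.12 in place of -0.03. Leaving out the tumour of fewest counts per group gave Cd4 -0.28 and Ifi44 0.071. Quantile normalisation gave Cd4 -0.16 and Pdcd1 -0.10, and Ptprc as covariate gave Cd4 -0.06 and Cxcl9 -0.16. The cause of these changes was not tested. Of 1200 list medians under alternatives, 11 moved by more than the spread used for them, in 4 lists. Leaving out each tumour in turn changed the sign of Cd4 (-0.24 to 0.32), Cxcl9 (-0.27 to 0.52) and C3 (-0.76 to 0.091). No paired analysis was possible because the groups share at most 1 title number. Depth limits the genes under 10 counts, in the 4 tumours and in some others. The totals under 200000 all lie in DMSO groups. A difference of differences depends on the log2 scale.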
